A study of Mus musculus with 7 samples.

Results

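The genes described here are 10 genes of brain blood vessels: Pecam1, Cldn5, Emcn, Vwf, Kdr, Flt1, Tek, Tie1, Mfsd2a and Slco1a4. They were chosen by name, as known genes of endothelium and the blood-brain barrier, with earlier results of these data known. All 10 were among the 37620 gene identifiers counted and among the 16068 genes that passed the filter on low counts. RNA was sequenced from 7 brain tumours, each grown in the brain of a nude mouse from implanted mouse glioblastoma stem-like cells. These cells are labelled as tumour cells derived from neural stem cells, with the subventricular zone as source, and formed 2 lines. GSC1 cells, labelled lgT/Ras, gave 4 tumours, and GSC2 cells, labelled shp53, Nf1-/- and CDK4, gave 3 tumours, all described as independent. Each set of changes was present in 1 line, so a difference between the groups is one between lines. Libraries held 18643155 to 32643408 reads counted on genes. The genes had 89 (Emcn in GSC2 replicate 1) to 5405 (Flt1 in GSC1 replicate 2) reads in a library. Levels are in CPM, read counts scaled to a common library size with TMM factors, and log2 fold changes are GSC1 over GSC2.

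Vessels of the brain are lined by endothelial cells that are sealed to each other by tight junctions and that carry selected molecules across in membrane transporters, which together form the blood-brain barrier. Vascular endothelial growth factor (VEGF) acts on these cells through the receptor encoded by Kdr, while the receptor encoded by Flt1 binds VEGF tightly and, in a secreted form, withholds it. Angiopoietins act through the receptor encoded by Tek, and Tie1 encodes its partner. Vessels of malignant brain tumours are known for abnormal growth and a leaky barrier.

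The region just before the start of transcription is shown for 3 of the genes. Slco1a4 and Mfsd2a had the steepest rising slopes on the brain score described below, and Flt1 was the gene that fell. The sequences are the 250 bases before the start, from RefSeq on GRCm38.p6, 5′ to 3′ on the strand of the gene. Capitals mark GGAAG or its reverse complement CTTCC, 1 form of the GGAA or GGAT core bound by ETS factors. This family includes the main regulators of endothelial genes. Other forms of the core are not marked.
Slco1a4 (chr6:141856221-141856470, minus strand): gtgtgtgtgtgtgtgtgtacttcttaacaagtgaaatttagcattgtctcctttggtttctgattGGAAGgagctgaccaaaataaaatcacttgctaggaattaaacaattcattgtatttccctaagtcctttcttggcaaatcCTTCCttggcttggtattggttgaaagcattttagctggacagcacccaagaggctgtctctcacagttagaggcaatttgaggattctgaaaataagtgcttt
Mfsd2a (chr4:122961189-122961438, minus strand): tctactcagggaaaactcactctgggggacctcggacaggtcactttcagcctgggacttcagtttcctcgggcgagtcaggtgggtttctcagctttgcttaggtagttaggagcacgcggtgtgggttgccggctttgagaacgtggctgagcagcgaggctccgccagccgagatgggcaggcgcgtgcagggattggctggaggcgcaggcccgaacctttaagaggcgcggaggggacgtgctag
Flt1 (chr5:147726012-147726261, minus strand): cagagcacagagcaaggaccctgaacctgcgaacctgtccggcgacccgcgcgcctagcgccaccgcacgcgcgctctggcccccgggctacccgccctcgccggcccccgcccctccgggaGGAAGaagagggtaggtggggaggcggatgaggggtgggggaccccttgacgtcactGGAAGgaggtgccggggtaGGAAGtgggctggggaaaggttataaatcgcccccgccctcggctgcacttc
Of the 10 genes, 8 had an entry in the RefSeq table. GGAAG on either strand stood in 5 of the 8 windows, with 6 copies before Tie1, 3 before Flt1, 2 before Slco1a4, 2 before Emcn and 1 before Kdr, and in 64.1% of 32851 such windows of the genome. The longer element AACAGGAA, in which a forkhead and an ETS site are joined, was in 1 window, that of Emcn, and in 2.25% of all windows. The first 3 windows thus differ in copies of GGAAG (2, 0 and 3). Other forms of the ETS core, such as the GGAA in the Mfsd2a window, are outside these counts. These letters are a description of the sequence only.

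Per kilobase of transcript, Cldn5 was the highest of the 10 genes and Emcn the lowest. Cldn5, which encodes the main tight junction claudin of brain endothelium, averaged 44.2 ± 14.0 CPM per kilobase over the 7 tumours (SD, n = 7). It was followed by Flt1 with 14.6 ± 7.74, Mfsd2a with 10.6 ± 4.41, Vwf with 8.90 ± 4.97, Pecam1 with 7.61 ± 2.10 and Slco1a4 with 6.94 ± 4.42 CPM per kilobase. Lower levels were found for Kdr (3.99 ± 0.715), Tie1 (2.94 ± 0.617), Tek (2.55 ± 1.29) and Emcn (1.84 ± 0.749 CPM per kilobase). The ranges of neighbours in this order overlapped, those of Cldn5 and Flt1 only between the lowest Cldn5 level of 25.5 and the highest Flt1 level of 28.8 CPM per kilobase. These levels rest on the longest annotated transcript of each gene, and reads of secreted and membrane-bound Flt1 isoforms were counted together.

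**Figure D1:**
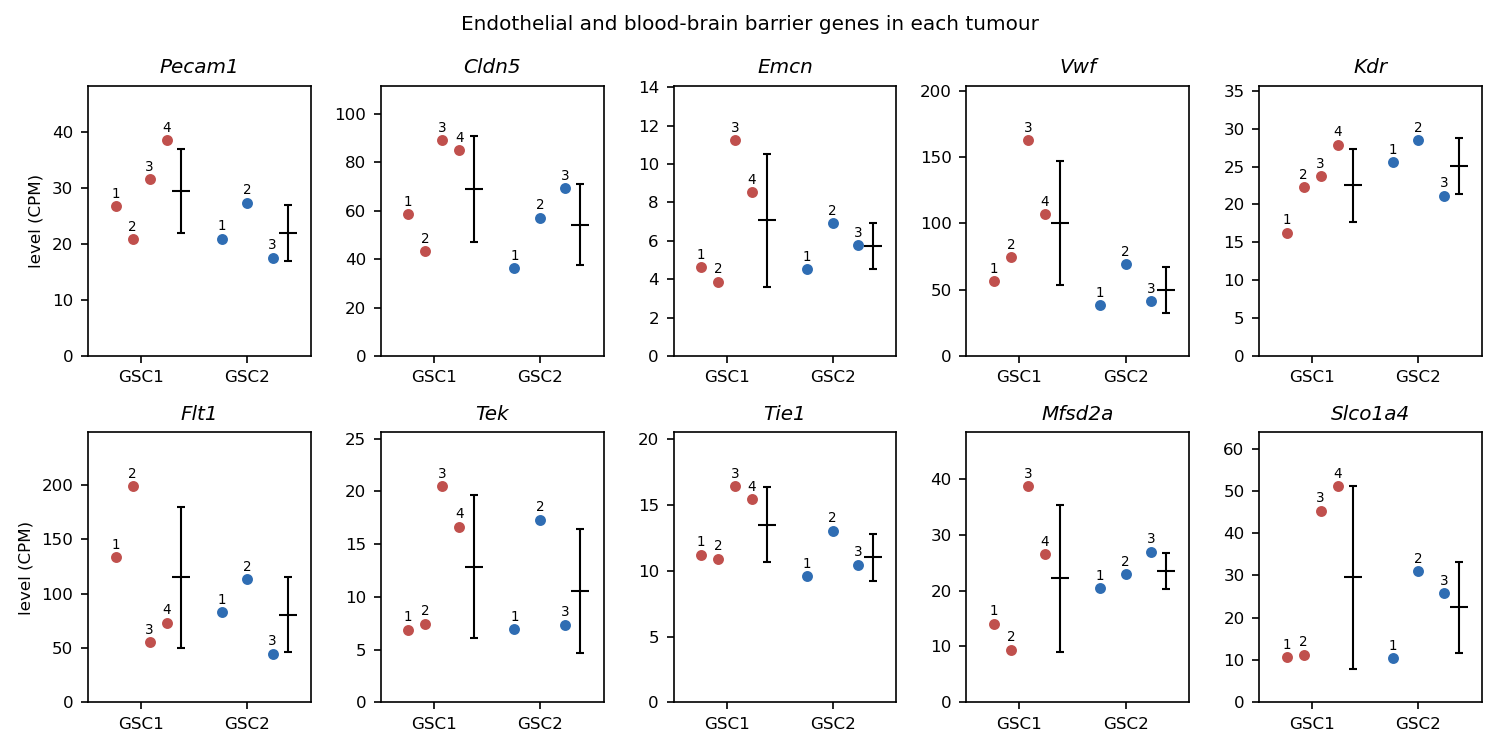
Level of each gene in CPM (vertical axes, each from 0) in the 4 GSC1 tumours (red) and 3 GSC2 tumours (blue), with the replicate number above each point and the mean ± SD as a black bar. The lines overlap for every gene, and GSC1 replicates 3 and 4 are the highest tumours for Pecam1, Cldn5, Emcn, Vwf, Tie1 and Slco1a4.

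Genes of the endothelial surface, junction and secretory granules were highest in the same pair of GSC1 tumours. In bulk tumours fewer endothelial cells and less RNA per endothelial cell cannot be told apart. Pecam1, an adhesion molecule of endothelial contacts, was at 26.7, 20.8, 31.5 and 38.5 CPM across GSC1 replicates 1 to 4, against 20.9, 27.3 and 17.5 CPM across GSC2 replicates 1 to 3. Cldn5 was at 58.5, 43.2, 89.2 and 84.9 CPM across GSC1 tumours, against 36.2, 57.2 and 69.2 CPM across GSC2 tumours. GSC1 replicates 3 and 4 lay above the other 5 tumours for both genes, while GSC1 replicates 1 and 2 lay within the range of GSC2. Emcn, which encodes the sialomucin endomucin of venous and capillary endothelium, was at 4.61, 3.86, 11.2 and 8.52 CPM across GSC1 tumours, against 4.53, 6.91 and 5.76 CPM across GSC2 tumours. Vwf, the gene for von Willebrand factor, which is stored in endothelial granules and captures platelets, was at 56.6, 74.8, 163 and 107 CPM in GSC1 and at 38.2, 69.3 and 41.3 CPM in GSC2. Its shift between the lines had the smallest p of the 10 genes, and only GSC1 replicate 1 fell inside the GSC2 range. Platelets and megakaryocytes also make this factor. Of 11 platelet and megakaryocyte genes 6 stayed under 1 CPM in every tumour, and the sum of the list was 9.23 to 26.9 CPM in GSC1 and 9.06 to 15.4 CPM in GSC2. Of the 5 that were tested, 3 rose with the brain score described below (Gp1bb, Gp5 and Selp, the last also made by endothelium), where 23.3% of all genes rose. Their part in the level of Vwf was not tested. Gp6 had no read in any tumour, and Pf4, a platelet chemokine gene, was at 0.290 to 1.38 CPM in GSC1 and 0.407 to 2.51 CPM in GSC2.

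Of the VEGF receptor genes, Flt1 ranged more widely over the tumours than Kdr. Kdr was at 16.3, 22.3, 23.7 and 27.9 CPM in GSC1 and at 25.5, 28.5 and 21.2 CPM in GSC2, and the highest tumour had 1.75 times the level of the lowest. Flt1 was at 134, 199, 55.4 and 73.2 CPM in GSC1 and at 83.3, 114 and 44.8 CPM in GSC2, a range of 4.44-fold. Flt1 was highest in GSC1 replicates 1 and 2, where most of the other genes were low, and it was low in GSC1 replicates 3 and 4, where most of them peaked. The ratio of Flt1 to Kdr reads was 8.21, 8.92, 2.33 and 2.62 in GSC1 and 3.26, 3.99 and 2.12 in GSC2.

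Among the angiopoietin receptor genes, Tie1 had the narrowest range of all 10 genes, 1.71-fold. It was at 11.2, 10.9, 16.4 and 15.5 CPM in GSC1 and at 9.62, 13.0 and 10.5 CPM in GSC2. Tek was at 6.90, 7.46, 20.5 and 16.7 CPM in GSC1 and at 6.92, 17.3 and 7.37 CPM in GSC2. For Tek 3 tumours were at 16.7 CPM or above and 4 at 7.46 CPM or below, with both lines in each set.

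The transporter genes of the barrier, Flt1 and Vwf had the widest ranges over the tumours among the 10 genes. Mfsd2a, which encodes a lysolipid transporter that carries docosahexaenoic acid into the brain and restrains transcytosis, was at 14.1, 9.41, 38.6 and 26.5 CPM in GSC1 and at 20.5, 23.0 and 26.9 CPM in GSC2. GSC2 replicates 1 and 2 lay between the low and the high pair of GSC1 tumours, and GSC2 replicate 3 lay just above GSC1 replicate 4. Slco1a4, the gene for an organic anion transporter of the barrier, had the widest range, 4.87-fold. It was at 10.6, 11.3, 45.3 and 51.0 CPM in GSC1 and at 10.5, 31.1 and 25.8 CPM in GSC2. Its 3 low tumours were GSC1 replicates 1 and 2 and GSC2 replicate 1. Slco1a4 has close relatives that could share reads with it. Slco1a1 had at most 1 read in a tumour and Slco1a6 at most 11, and Slco1a5 had 220 reads in GSC1 replicate 4 and at most 26 in the others, against at least 206 for Slco1a4.

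Between the lines 0 of the 10 genes passed edgeR's quasi-likelihood test with Benjamini-Hochberg adjustment, where 0% of the 16068 genes tested were called (0 genes, and 677 at an unadjusted p under 0.05, 4.21%). Of the 10, 1 had an unadjusted p under 0.05, which was Vwf. DESeq2 called 192 genes (1.2%, of which 0.65% of genes higher and 0.55% lower in GSC1), limma-voom 1 gene (0.00622%) and edgeR with no filter on low counts 1 gene (0.00437%, lower in GSC1), and each called 0 of the 10. In simulated counts of this design DESeq2 made 64 false calls, edgeR 5 and limma-voom 4. There DESeq2 recovered 14% of 2-fold, 72% of 4-fold and 92% of 8-fold changes, against 0, 22 and 66% for edgeR. The values of the lines overlapped for each of the 10 genes, and 5.58% of all genes had values that did not overlap. Vwf averaged 100.4 ± 46.7 CPM in GSC1 (SD, n = 4) and 49.6 ± 17.2 CPM in GSC2 (SD, n = 3), with a log2 fold change of 1.02 (SE 0.42, adjusted p = 1.00). The fold was positive for 8 genes and negative for Kdr (-0.15, SE 0.26) and Mfsd2a (-0.08, SE 0.48). Flt1 had a fold of 0.52 (SE 0.51), Pecam1 of 0.42 (SE 0.29), Slco1a4 of 0.40 (SE 0.68) and Cldn5 of 0.35 (SE 0.34). Emcn, Tie1 and Tek had folds of 0.30, 0.29 and 0.29 (SE 0.45, 0.28 and 0.54). The median over the 10 genes was 0.32, against 0.03 over all genes tested, with 53.7% of all genes above 0. Without the 3 libraries in which long transcripts were lowest relative to short ones (GSC1 replicates 3 and 4 and GSC2 replicate 3, called the short-biased libraries), the folds of Pecam1 (-0.02), Tie1 (-0.03), Emcn (-0.43), Tek (-0.76) and Slco1a4 (-0.93) were negative and that of Vwf was 0.28.

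Neuron and mature oligodendrocyte RNA in each tumour was summarised as a brain score. It was the mean log2 CPM of a neuron and a mature oligodendrocyte list that hold none of the 10 genes. Whether host brain or tumour cells made this RNA was not tested. The score was 6.12, 4.85, 8.51 and 7.68 across GSC1 replicates 1 to 4, against 6.37, 7.79 and 7.73 across GSC2 replicates 1 to 3. The slope on this score, with the line in the model, was tested for all genes with edgeR, a test added after the files had been seen. Of the 10 genes 6 rose with the score and 1 fell, where 23.3% of all genes tested rose and 23% fell (46.4% in all). Slco1a4 had the steepest slope, 0.73 log2 units per unit of score (SE 0.14, adjusted p = 0.00426), a factor of 1.65. Mfsd2a (0.51, SE 0.08, adjusted p = 0.0027), Tek (0.47, SE 0.14, adjusted p = 0.0239), Emcn (0.43, SE 0.10, adjusted p = 0.0111), Cldn5 (0.34, SE 0.07, adjusted p = 0.00789) and Vwf (0.33, SE 0.11, adjusted p = 0.0312) also rose. Flt1 fell, with a slope of -0.45 (SE 0.14, adjusted p = 0.0281), a factor of 0.734. Pecam1 (0.19, SE 0.09, adjusted p = 0.136), Tie1 (0.18, SE 0.08, adjusted p = 0.102) and Kdr (0.08, SE 0.09, adjusted p = 0.527) did not pass. The median slope was 0.33 over the 10 genes.

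**Figure D2:**
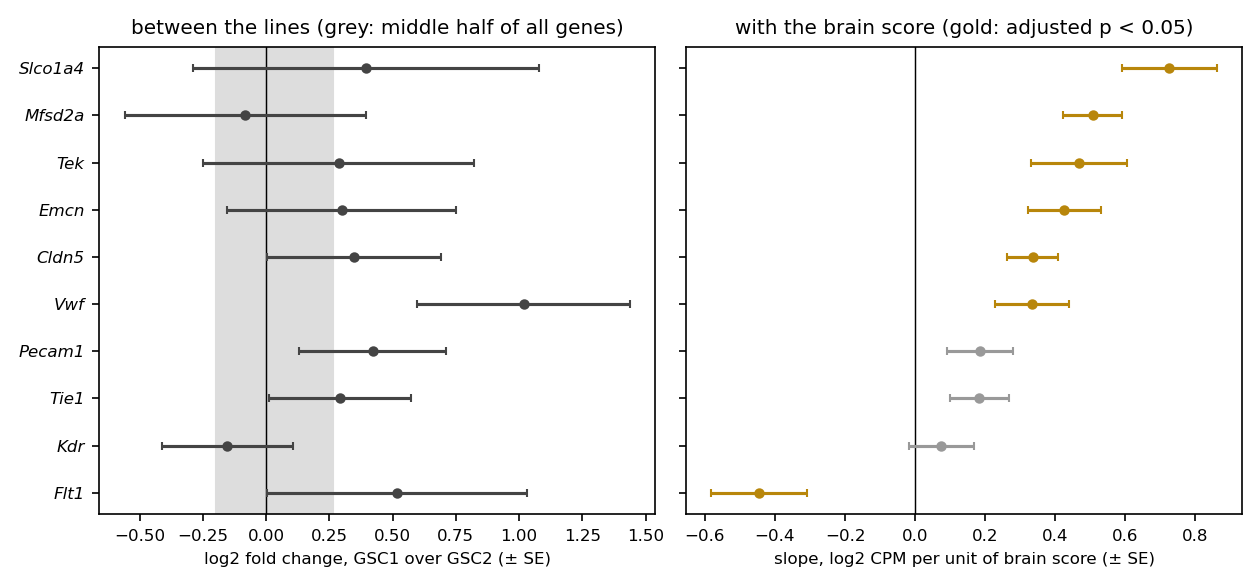
Log2 fold change of GSC1 over GSC2 (left, grey band from the lower to the upper quartile of all genes) and slope of log2 CPM on the brain score (right, gold where the adjusted p is under 0.05) for each gene, with bars of 1 SE. No fold passed the test, while 6 slopes above 0 and that of Flt1 below 0 did.

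**Figure D3:**
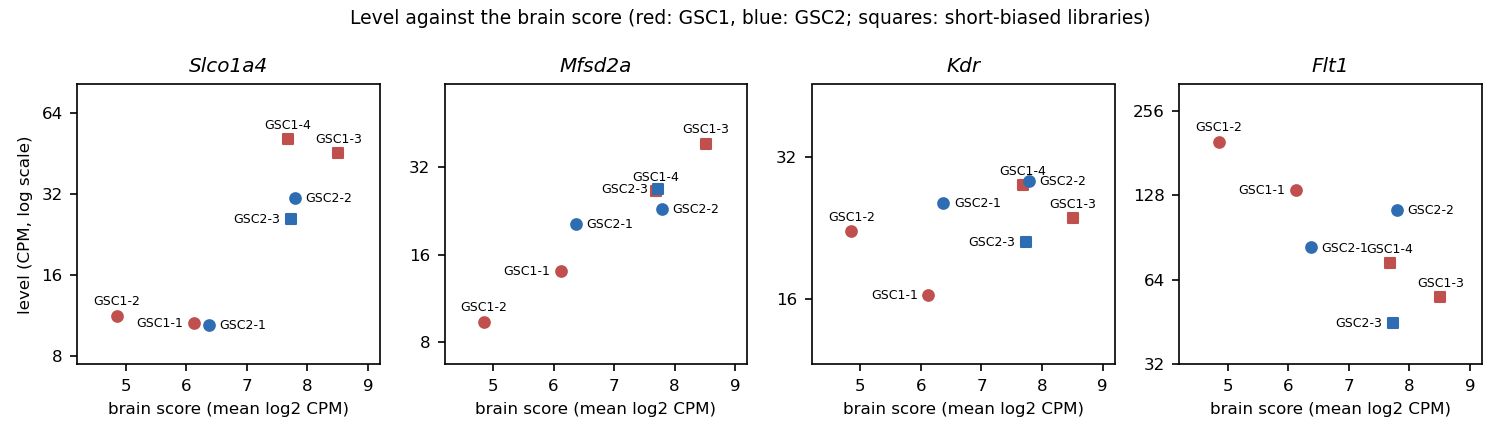
Level in CPM (log axis) of Slco1a4, Mfsd2a, Kdr and Flt1 against the brain score in mean log2 CPM, with GSC1 tumours in red, GSC2 tumours in blue and the 3 short-biased libraries as squares. Slco1a4 and Mfsd2a rise along the axis, Kdr stays between 16.3 and 28.5 CPM, and Flt1 falls.

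The number of calls depended on single tumours, among the 10 genes as among all genes. Leaving out GSC1 replicates 1, 2, 3 and 4 in turn left 4, 3, 3 and 6 of the 10 genes called, where 39.9, 22.5, 28.4 and 38.8% of all genes were called. Leaving out GSC2 replicates 1, 2 and 3 left 5, 7 and 7, where 36, 46.3 and 47.7% of all genes were called. Slco1a4 and Mfsd2a passed in each of these 7 fits. Cldn5 passed in 6, Emcn in 5, Vwf in 4, Flt1 in 3 and Tek in 3 of the 7. Slopes of these 5 genes kept their sign in all 7 fits. The slope of Cldn5 was 0.36 in the fit without GSC1 replicate 2, where its adjusted p was 0.0704, and that of Flt1 ranged from -0.53 to -0.38. Dropping the 3 short-biased libraries kept scores of 6.12 and 4.85 in GSC1 and of 6.37 and 7.79 in GSC2. That also removes the tumour with the highest score, and in that fit 0 of the 10 passed (6.6% of all genes did). The slopes there were 0.62 for Slco1a4, 0.51 for Tek, 0.45 for Cldn5, 0.36 for Emcn, 0.31 for Pecam1, 0.30 for Mfsd2a, 0.23 for Vwf and 0.22 for Tie1, each with an SE of 0.16 to 0.29. Those of Flt1 (0.01, SE 0.18) and Kdr (-0.06, SE 0.19) were near 0. A trend on transcript length removed per library left the same 7 genes called, where 21.4% of all genes rose and 29.4% fell. The slope of Cldn5 went from 0.34 to 0.18 (edgeR adjusted p = 0.0372) and that of Mfsd2a from 0.51 to 0.39. Slopes of the other called genes were then 0.68 for Slco1a4, 0.45 for Vwf, 0.45 for Tek, 0.37 for Emcn and -0.38 for Flt1. With both the brain score and this length trend in the fit of the lines, a combination added after seeing the data, Vwf was called higher in GSC1 (1.39, adjusted p = 0.0197), where 2.84% of all genes were called. With the score alone Vwf had a fold of 1.13 (adjusted p = 0.0788) and 0 of the 10 genes were called, against 1.14% of all genes.

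Most of the 10 genes varied less once a score of other endothelial genes was subtracted from their log2 levels. An endothelial score, the mean log2 CPM of 20 other pan-endothelial genes such as Cdh5 (VE-cadherin) and Esam, was 3.28, 3.30, 3.72 and 3.64 across GSC1 replicates 1 to 4, against 3.11, 3.39 and 3.04 across GSC2 replicates 1 to 3. The defining marker Cdh5 was present in every tumour, at 21.7, 25.8, 31.5 and 28.0 CPM in GSC1 and 20.9, 26.8 and 16.4 CPM in GSC2. Tie1 followed the score most closely. Its log2 level minus the score ranged over 0.20 across the tumours, and its SD fell to 0.08, against 0.29 before the score was subtracted. The spread became smaller for 8 of the 10 genes, Pecam1 (SD 0.20, against 0.39 before) among them. The share of all genes with a smaller spread is not given here, so this count is not set apart from other genes. The spread did not become smaller for Flt1 (SD 0.81 after and 0.75 before) and Kdr (0.30 after and 0.28 before). Slco1a4 had the largest remaining spread (SD 0.84 after and 1.00 before), followed by Flt1. Relative to the score Slco1a4 was at 0.15, 0.21, 1.79 and 2.03 across GSC1 replicates 1 to 4, against 0.29, 1.57 and 1.65 across GSC2 replicates 1 to 3, so the 3 tumours with the lowest brain scores were again the low ones. Flt1 was at 3.79, 4.33, 2.08 and 2.55 in GSC1 and at 3.28, 3.44 and 2.44 in GSC2. The ratio of Flt1 to Slco1a4 reads spanned 1.22 in GSC1 replicate 3 to 17.5 in GSC1 replicate 2. It was 12.6 and 1.43 in GSC1 replicates 1 and 4, and 7.95, 3.66 and 1.73 across GSC2 tumours. Between the lines, Kdr relative to the score was 0.99 ± 0.21 in GSC1 (SD, n = 4) and 1.46 ± 0.10 in GSC2 (SD, n = 3), and with the endothelial score as a covariate its fold was -0.48 (edgeR adjusted p = 0.536). The fold of Vwf in that fit was 0.15 (adjusted p = 0.806). There 0% of all genes were called (0 genes, and 1745 at an unadjusted p under 0.05).

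**Figure D4:**
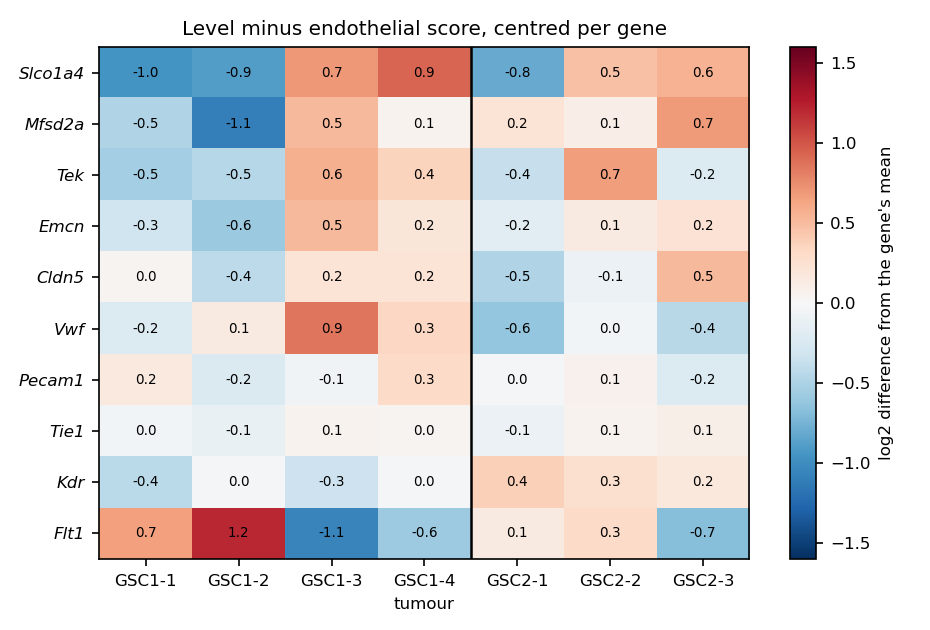
Log2 level minus the endothelial score for each gene (rows, ordered by slope on the brain score) and tumour (columns, GSC1 left of the line), centred on the gene's mean, on a colour scale in log2 units. Tie1 stays within 0.20 in all 7 tumours, while Slco1a4 and Flt1 lie on opposite sides of their means in every tumour but GSC2 replicate 2.

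Other genes of the vessel wall were read from the same fits, where 23.3% of all genes rose with the brain score and 23% fell. Of the 20 other pan-endothelial genes 4 rose with the brain score (Clec14a, Eng, Icam2 and Rasip1), 1 fell (Cd93) and 15 were not called, with a median slope of 0.16. Cd93, a surface lectin of endothelial and myeloid cells, was at 54.1, 87.3, 19.95 and 34.0 CPM in GSC1 and at 38.1, 45.7 and 36.8 CPM in GSC2 (slope -0.47, SE 0.10, adjusted p = 0.00813). Among 24 other blood-brain barrier genes 11 rose, 3 fell and 10 were not called, with a median slope of 0.25. Those that rose included Itm2a (1.07, SE 0.14) and Ly6c1 (0.52, SE 0.09), both markers of brain endothelium, Slc38a5, a glutamine transporter gene (0.47, SE 0.10), and Slco1c1, a thyroxine transporter gene (0.78, SE 0.18). Spock2, Slco1c1 and Slc22a8 are also made by other brain or choroid plexus cells. Of 12 astrocyte markers 11 rose with the score, and their sum was 2741, 2018, 15569 and 13211 CPM in GSC1 and 2920, 7653 and 7618 CPM in GSC2. The summed choroid plexus list was at 83.3, 141, 93.4 and 9255 CPM in GSC1 and at 2227, 3016 and 5102 CPM in GSC2, and 0 of its 10 genes passed in the edgeR test of the slope. The part of such cells in the slopes was not tested. The 3 barrier genes that fell were Tjp1, a junction scaffold (-0.47, SE 0.11), Slc7a5, a large amino acid transporter (-0.26, SE 0.08), and Foxf2, a transcription factor of pericytes (-0.42, SE 0.14). Slc7a5 was at 219 to 400 CPM over the tumours, against 16.4 to 31.5 CPM for the endothelial marker Cdh5. Which cells made the transcripts of these 3 genes was not tested. The glucose transporter gene Slc2a1 (0.07, SE 0.09) and the efflux pump gene Abcb1a (0.12, SE 0.14) did not pass.

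**Figure D5:**
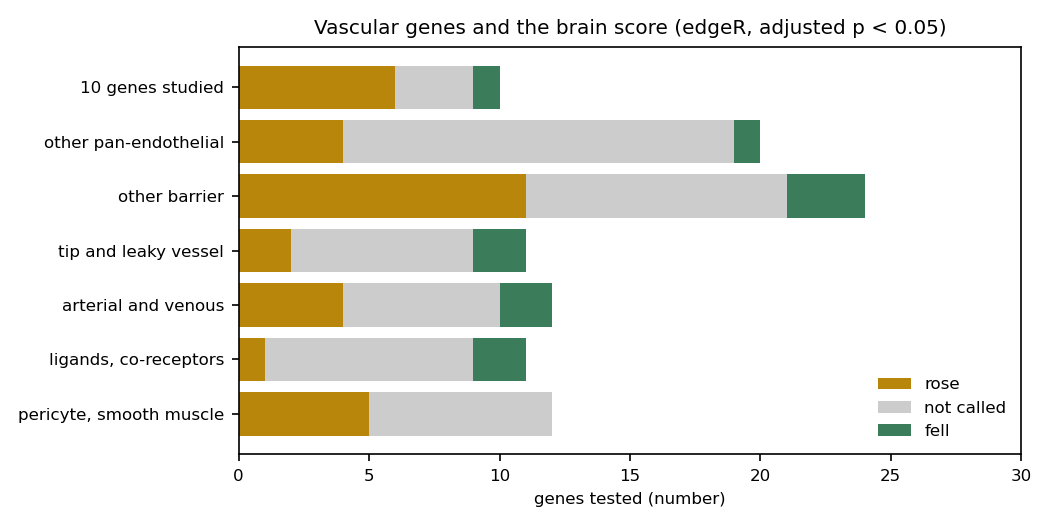
Number of genes tested per vascular list that rose (gold), were not called (grey) or fell (green) with the brain score at an edgeR adjusted p under 0.05. Of the 10 genes described, 6 rose and 1 fell, against 4 and 1 of 20 other pan-endothelial genes and 11 and 3 of 24 other barrier genes, where 23.3% of all genes rose and 23% fell.

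Of 11 genes of growing and leaky vessels 2 rose, 2 fell and 7 were not called, where 23.3% of all genes rose and 23% fell. Plvap, which encodes the diaphragm protein of fenestrated and leaky endothelium that healthy barrier vessels lack, was at 35.9, 38.7, 7.19 and 14.0 CPM in GSC1 and at 51.6, 45.6 and 34.4 CPM in GSC2. It fell with the brain score (-0.62, SE 0.12, adjusted p = 0.00500). Adm, a hypoxia-induced peptide gene, fell too (-0.66, SE 0.10), and Cd34 (0.38, SE 0.07) and Esm1 (0.37, SE 0.13) rose. Of the 11 ligand, co-receptor and partner genes tested, Vegfa (-0.48, SE 0.08, adjusted p = 0.00239) and Nrp2 (-0.46, SE 0.11, adjusted p = 0.0130) fell, and Angpt1, the agonist of the Tek receptor made by mural cells, rose (0.65, SE 0.10, adjusted p = 0.00237). Vegfa was at 90.9, 103, 34.1 and 40.9 CPM in GSC1 and at 71.3, 49.3 and 39.4 CPM in GSC2. Its 3 highest tumours were those with the lowest brain scores. Of 12 arterial and venous genes, 4 rose and 2 fell. The 4 that rose were the arterial connexin gene Gja5 (1.28, SE 0.20) and the venous genes Ackr1 (0.46, SE 0.11), Selp (0.44, SE 0.13) and Slc38a5 (0.47, SE 0.10). The venous genes Nr2f2 (-0.54, SE 0.11) and Ephb4 (-0.45, SE 0.07) fell, so venous genes moved both ways. Of 12 pericyte and smooth muscle markers 5 rose and 0 fell in edgeR's test (none of the others passed).

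Between the lines 0 genes of these lists were called by edgeR. An unadjusted p under 0.05 was found for 0 of the pan-endothelial, 1 of the barrier and 2 of the tip and leaky vessel genes. It was found for 1 of the arterial and venous, 1 of the ligand and 3 of the pericyte and smooth muscle genes (Pdgfrb, Acta2 and Tagln). Over the 6 lists these were 7 of 86 distinct genes (8.14%), where 4.21% of all genes had such a p. Angpt2 encodes the antagonist ligand of the Tek receptor that is released by activated endothelium. It was at 10.4, 7.17, 4.53 and 7.43 CPM in GSC1 and at 16.1, 19.4 and 24.8 CPM in GSC2, with no overlap (log2 fold change -1.45, SE 0.34, edgeR adjusted p = 0.595). Mcam, the gene for an adhesion molecule of endothelial and mural cells, was at 68.5, 71.1, 77.4 and 53.6 CPM in GSC1 and at 30.3, 37.1 and 36.5 CPM in GSC2 (0.97, SE 0.22). Pdgfrb, the receptor gene that defines pericytes, was at 56.4, 53.7, 69.5 and 41.3 CPM in GSC1 and at 21.3, 38.3 and 28.6 CPM in GSC2 (0.91, SE 0.29). Slc16a1, a lactate transporter gene, was at 233, 274, 251 and 233 CPM in GSC1 and at 123, 167 and 204 CPM in GSC2 (0.59, SE 0.24). Which cells made Slc16a1 was not tested. Apln, the gene for the peptide apelin of sprouting endothelium, was at 27.3, 30.8, 34.0 and 27.6 CPM in GSC1 and at 15.1, 20.7 and 26.8 CPM in GSC2 (0.52, SE 0.26). For these 5 of the 86 genes (5.81%) the lowest value of one line exceeded the highest of the other, a share near the 5.58% of all genes, and none passed after adjustment.

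The mean profile of the 10 genes over the 7 tumours, in log2 CPM centred on each gene's mean, was -0.29, -0.30, 0.56 and 0.47 across GSC1 replicates 1 to 4, against -0.43, 0.23 and -0.24 across GSC2 replicates 1 to 3. Tie1 lay nearest to it (root mean square distance 0.13) and Flt1 farthest (0.90). Among 11885 other genes, the nearest by the same distance were Nectin1 (0.0714), Sema6c (0.0733), Cbx7 (0.0800), Atg9a (0.0822), Amigo1 (0.0845), Zfyve9 (0.0853), Ap2a1 (0.0895), Elac1 (0.0946), Mta3 (0.0969) and Kctd21 (0.107), and 0 of these 10 stood on a vascular or cell type list. The median distance over the 11885 genes was 0.601.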

How the data were processed

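The authors deposited 1 table of raw read counts per tumour. The submitters' processing notes list TopHat2 2.0.11, HTSeq and the builds mm9 and dm3, with no role for either build. How HTSeq treated strand was not given in the sources used here. In GENCODE M21 no other gene has exons that overlap those of the 10 genes. Symbols were found for 32897 of 37620 identifiers, and 5 summary lines were left out (reads on no gene 6.19 to 14.2%, ambiguous reads 0.357 to 0.460%). Groups came from the sample titles. No 2 libraries agreed within sampling noise (chi-square per degree of freedom at least 70.9).

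Lines were compared with no covariate, on the counts, under R 4.3.3 in edgeR 4.0.16 (TMM factors, filterByExpr, robust quasi-likelihood fit, Benjamini-Hochberg over 16068 genes, threshold 0.05), with DESeq2 1.42.0 and limma 3.58.1 as alternatives. SE is the absolute log2 fold change or slope over the root of the F statistic. The test of the slope on the brain score was added after the files had been seen. Scores are means of log2 CPM with a prior count of 2, over the genes of a list that passed the filter. Transcript length was the longest transcript, known for 97.2% of genes tested, and a loess trend on it served as an offset. The tests were checked on simulated counts. There edgeR recovered 0% of 2-fold, 22% of 4-fold and 66% of 8-fold changes between the lines. For slopes on the brain score it recovered 39% of those of 0.5 and 89% of those of 1. Shared replicate numbers were not treated as pairs. Named genes were the 10 members, genes of the fixed lists and the 10 genes nearest in profile. Genes of the lists were named by smallest p between the lines or, where outside that rule, after their values had been seen. Members and lists were chosen with earlier results of these data known. Motif windows used RefSeq promoters of GRCm38.p6, and other short strings that were searched are not given. Errors cover the spread between these tumours only.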

Additional observations from a re-analysis of the deposited data

How the results depend on the processing

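Of 190 recomputed folds of the 10 genes, 16 changed sign and 1 passed the threshold. No fold had passed it as reported, and in simulated counts of this design edgeR missed moderate changes, so folds that stayed uncalled say nothing about stability. Of 150 recomputed slopes, 20 lost the call with their sign kept and 2 changed sign, of which that of Flt1 also lost the call. The count of genes called between the lines was 0, and it was 1 with no filter, 1 in limma-voom, 192 in DESeq2, 183 with the brain score, 55 without the 3 short-biased libraries and 457 with score and length trend, where 1 of the 10 was called. It was 0 to 0 when single tumours were left out. With the endothelial score as covariate the folds of Pecam1 (-0.015), Cldn5 (-0.11), Tie1 (-0.11), Emcn (-0.59), Tek (-0.85) and Slco1a4 (-1.25) were negative. Without the 3 short-biased libraries those of Pecam1 (-0.018), Tie1 (-0.031), Emcn (-0.43), Tek (-0.76) and Slco1a4 (-0.93) were. Kdr was at 0.021 with brain score and length trend, and Mfsd2a ranged from -0.46 to 0.17 as single tumours were left out. The deviations of tumours with the same replicate number correlated at 0.58, -0.31 and 0.41, and those with different numbers at -0.64 to 0.70. These values do not settle whether the numbers mark pairs. With the replicate number as a block Slco1a4 was at -0.20, and 0 of the 10 genes and 0 of all genes were called, as without it. Genes that followed the brain score numbered 7451, 1044 without the 3 short-biased libraries and 3546 to 7877 without single tumours. Of the 10 genes, 7 followed it, 0 without the 3 libraries and 3 to 7 without single tumours. Without the 3 libraries the slopes of Kdr and Flt1 changed sign (-0.060 and 0.0096), and those of the other 8 genes stayed positive (0.22 to 0.62). The cause of these changes was not tested. That fit keeps 4 tumours. GSC1 replicates 3 and 4 combine a bias to short transcripts with high brain scores.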

Other observations

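Blood and lymphatic genes gave further values beside the vessel genes. Of the 7 red cell genes in the tables, 5 were tested and all 5 rose with the brain score, where 23.3% of all genes rose. Their folds between the lines were all negative, where 53.7% of all genes had a fold above 0. Hbb-bs, the gene of an adult beta globin, was at 23.5, 10.99, 139 and 109 CPM across GSC1 replicates 1 to 4, against 80.6, 283 and 138 CPM across GSC2 replicates 1 to 3 (log2 fold change -1.25, SE 0.87).

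Of the 5 lymphatic endothelial genes tested, 0 were called between the lines in edgeR and 2 had an unadjusted p under 0.05. The shares over all genes were 0% and 4.21%. Prox1, which is also made in neural progenitors and neurons, was at 7.51, 5.11, 15.3 and 10.5 CPM in GSC1 and at 31.4, 60.4 and 26.2 CPM in GSC2. Lyve1, a hyaluronan receptor gene of lymphatic endothelium and macrophages, was at 0.782, 1.69, 2.46 and 1.95 CPM in GSC1 and at 0.458, 0.351 and 0.652 CPM in GSC2. The macrophage gene Mrc1 was at 11.5, 8.56, 19.0 and 21.0 CPM in GSC1 and at 6.97, 8.73 and 5.96 CPM in GSC2. The summed microglia and macrophage list was at 907 to 1599 CPM in GSC1 and 1310 to 1875 CPM in GSC2. It had 2 genes that rose with the brain score, 1 that fell and 9 not called, where 23.3% of all genes rose and 23% fell.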
